A study of Arabidopsis thaliana with 8 samples.

Results

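JMJ24 knockout seedlings of Arabidopsis thaliana were compared with wild type (WT) seedlings on Affymetrix ATH1 arrays. Arrays were assigned by their genotype label, which gave 2 JMJ24 knockout and 2 WT arrays out of 8 in the series. The other 4 arrays, 2 of a JMJ24-IBM1 double knockout and 2 of an IBM1 knockout, were used to read the same genes where JMJ24 was lost in plants that also lack IBM1. All 8 arrays were of ecotype Col-0, and per the labels each held total RNA from aerial parts of untreated plants aged 12 days. The plants grew on MS medium at 0.5 times its strength, at 60% humidity, in days of 16 h at 20 °C and nights of 8 h at 18 °C. The labels name no knockout allele and do not state that replicate arrays are from different plants, so a p-value here reflects only how far these arrays lie apart, which may be a technical spread.

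JMJ24 belongs to the jumonji family, proteins with a fold that in many members removes methyl groups from histone tails. IBM1, a close relative in Arabidopsis, is known for keeping methylation of histone H3 lysine 9 and of non-CG cytosines out of the bodies of active genes. JMJ24 also carries a RING domain, the fold of many ubiquitin ligases, and has been linked to the turnover of the DNA methyltransferase CMT3 and to the silencing of transposons and repeats.

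Of 22746 probe sets tested, 13513 name 1 gene in the annotation used, 503 name several and 8730 are unnamed here. The JMJ24 and IBM1 probe sets are among the unnamed, so the genotype labels had no check from the targeted transcripts. Array medians ran from 3.41 to 3.52 on the log2 scale of the deposited values. RNA yields were 34.2 and 38.4 µg for the JMJ24 knockout, against 45.5 and 28.2 µg for WT. The green tissue markers RCA and LHCB4.2, of the photosynthetic apparatus, stood between 12.81 and 12.95 on the JMJ24 knockout arrays and between 12.83 and 12.93 on the WT arrays. The root hair gene EXPA7 lay at or below the lower quartile of all 8 arrays, while PYK10, a glucosidase gene used as a root marker, measured 9.00 and 8.88 in the JMJ24 knockout, against 8.65 and 8.85 in WT. In all, 6 of the 46 tissue markers listed were measured under a name. The probes at the 3′ end of the actin control exceeded those at its 5′ end by 6.41 and 6.48 in the JMJ24 knockout, against 6.46 and 6.21 in WT. The same 3′ excess for GAPDH was 2.24 and 2.38 in the JMJ24 knockout, against 2.58 and 1.77 in WT, so the WT arrays lay further apart than the JMJ24 knockout arrays in both controls.

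The comparison asked which transcripts change when JMJ24 alone is missing. It was read in a limma fit with 1 mean per genotype over the 8 arrays, and by counting the probe sets whose JMJ24 knockout arrays both lay on one side of both WT arrays. In the limma fit 2 of 22746 probe sets, 0.00879%, passed a Benjamini-Hochberg adjusted p of 0.05 and are named calls below, both lower in the knockout, and 0 were called higher. An unadjusted p under 0.05 was reached by 920 of 22746, under the share of 0.05 that unchanged probe sets alone would give on average. The calls depended on single arrays of the fit: leaving out either WT array or either double knockout array left 0 calls, and leaving out any of the other 4 arrays left 1.

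AT2G46910, which encodes a member of the plastid fibrillin family, lipid-binding proteins of plastoglobules and thylakoids, was the named gene among the calls. It measured 4.89 and 5.18 on the JMJ24 knockout arrays, against 7.20 and 7.14 on the WT arrays. Every JMJ24 knockout value lay at least 1 below every WT value, and the arrays within each genotype stood close together. The means were 5.03 ± 0.206 in the JMJ24 knockout and 7.17 ± 0.0387 in WT (SD, n = 2 arrays each), and the gene fell by 2.13 on the log2 scale (SE 0.10, limma adjusted p = 0.0278). In an extract of whole aerial parts, fewer cells of a type and less RNA per cell cannot be told apart. AT2G46910, known from earlier results of these data, was also read in the pair of genotypes that lack IBM1. That pair shares no array with the comparison of JMJ24 knockout and WT, but its test comes from the same limma fit. There it measured 4.85 on both double knockout arrays, against 6.72 on both IBM1 knockout arrays, and fell by 1.87 (limma adjusted p = 0.0138). The difference between those changes was not called (interaction adjusted p = 0.781). The tests of both pairs are not independent, since the fit pools the spread of all genotypes and gave both the same SE. That spread was smallest in the double knockout (SD 0.0045) and the IBM1 knockout (SD 0.0038). With only the JMJ24 knockout and WT arrays fitted, AT2G46910 was not called (limma adjusted p = 0.808). Single arrays decided both calls of AT2G46910: that against WT was lost without either array of WT, the double knockout or the IBM1 knockout (adjusted p from 0.242 to 0.479), and with quantile normalization on top (0.0613). The call against the IBM1 knockout was lost without either WT array, either double knockout array or IBM1 knockout replicate 2 (adjusted p from 0.0501 to 0.177).

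The genes beside AT2G46910 did not show such a gap. Of the 5 annotated genes on either side, 5 of 10 were measured under a name, and their differences ran from -0.05 to 0.27 with adjusted p of 1. AT2G46900, the next gene on one side, stood at 5.82 and 6.13 in the JMJ24 knockout, against 5.69 and 5.70 in WT. AT2G46915, the next on the other side, was near background, meaning at or below each array's lower quartile, in both genotypes. The rest of the fibrillin family was also read, as a list chosen with this result known. Of 14 fibrillin genes 8 were measured, and AT2G46910 was the 1 called. The next lowest p belonged to AT1G51110, at 8.48 on both JMJ24 knockout arrays, against 9.08 and 8.64 in WT (limma adjusted p = 1). The family's median difference was -0.03, beside 0.00 over 13355 genes read at 1 probe set each.

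The other call was the probe set 264649_at, whose gene is unnamed here. Its values were 2.25 and 2.28 in the JMJ24 knockout, against 6.17 and 6.09 in WT. Both knockout arrays lay under their own lower quartiles, 2.50 and 2.52, and both WT arrays were far above theirs. The fitted difference was -3.87 (SE 0.16, limma adjusted p = 0.0278), and with the quartile in place of the lower values the probe set fell by at least 3.62. In plants lacking IBM1 it stood at 2.48 and 2.44 in the double knockout, against 5.78 and 5.27 in the IBM1 knockout. It was called there as well, at -3.06 (limma adjusted p = 0.0146), among 47 probe sets (0.207%) called lower in that pair. The double knockout was near background for 264649_at, which gave a bound of -3.01 in that pair. Without any 1 array of the JMJ24 knockout, WT or the double knockout, 264649_at was called in neither pair (adjusted p from 0.300 to 0.479 against WT and from 0.0683 to 0.177 against the IBM1 knockout). With no gene assigned, it remains unknown here whether this probe set reads JMJ24 or another transcript.

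**Figure D1:**
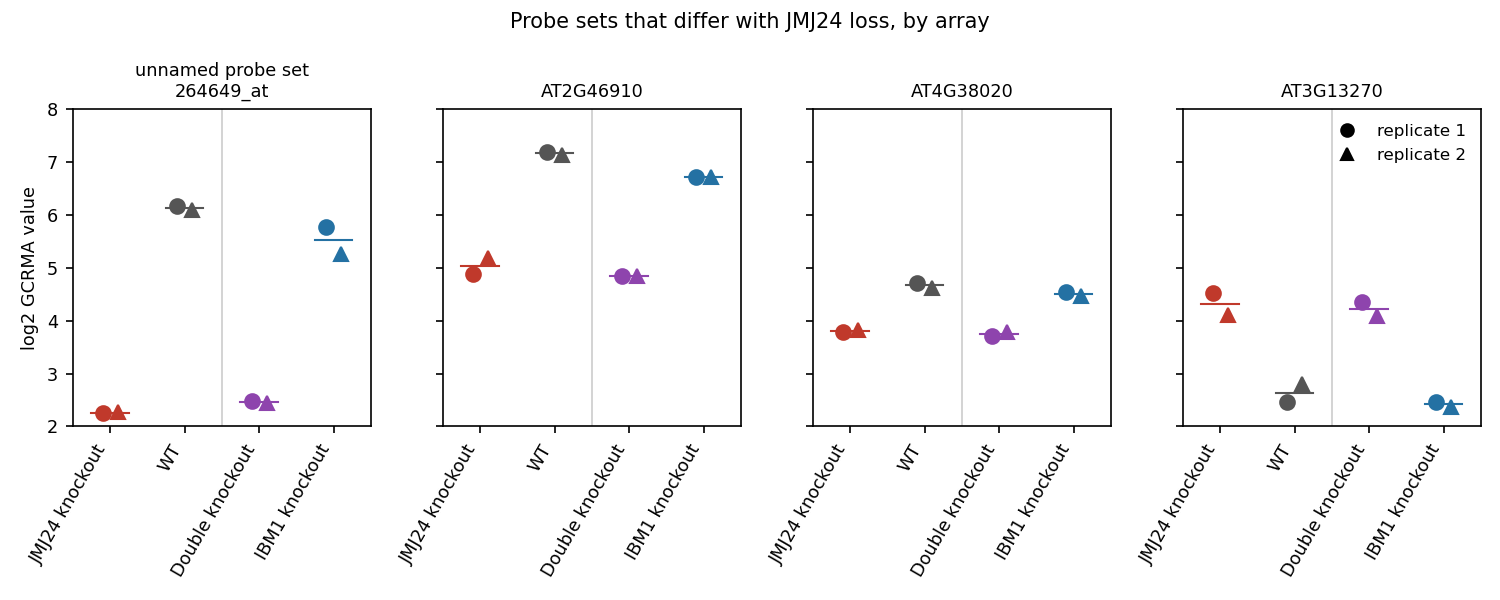
Log2 values (vertical axis) of 4 probe sets on each array, with circles for replicate 1, triangles for replicate 2 and bars for genotype means. In each panel the JMJ24 knockout stands left of WT and the double knockout left of the IBM1 knockout; 264649_at, AT2G46910 and AT4G38020 are lower and AT3G13270 is higher on both arrays of the genotypes lacking JMJ24, while the tests passed for 264649_at and AT2G46910 in both pairs and for AT4G38020 in the pair lacking IBM1.

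A pair of genes known from earlier results of these data had a like layout of arrays without passing the test in JMJ24 knockout against WT. AT4G38020, which encodes a tRNA/rRNA methyltransferase of the SpoU family, measured 3.79 and 3.83 in the JMJ24 knockout, against 4.71 and 4.62 in WT. The difference of -0.86 had an adjusted p of 0.0988. In the double knockout AT4G38020 measured 3.71 and 3.79, against 4.54 and 4.48 in the IBM1 knockout, and it was called there, at -0.76 (limma adjusted p = 0.0277), a call that was lost with limma-trend (0.145) and without any array but IBM1 knockout replicate 1 (adjusted p from 0.0683 to 0.183). AT3G13270, a pseudogene in the gene table, lay on the other side of WT. It measured 4.53 and 4.11 in the JMJ24 knockout, against 2.47 and 2.80 in WT, a difference of 1.69 (SE 0.19, limma adjusted p = 0.342). Its double knockout values were 4.35 and 4.08, against 2.46 and 2.38 in the IBM1 knockout, a difference of 1.80 (limma adjusted p = 0.061). The IBM1 knockout was near background for AT3G13270, so the double knockout stood higher by at least 1.71. Neither gene's arrays overlapped between genotypes in either pair. Over all probe sets 3 (0.0132%) were called for the interaction, and 1 of these, the flowering gene ATC, is among the 156 probe sets named by the rules used here; the next adjusted p among them was 0.0938, for AT3G53980.

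Counting arrays that do not overlap gave a wide background. Both JMJ24 knockout arrays lay above both WT arrays for 2826 probe sets (12.4%) and below both for 2728 (12.0%). With a mean difference of at least 1 on the log2 scale as well, 18 (0.0791%) were higher and 19 (0.0835%) lower. The higher and lower sets were built differently. Among the 18 higher, 2, AT3G13270 and AT2G37870, had each knockout array at least 1 above the WT mean, and replicate 1 exceeded replicate 2 by at least 1 in 11. Their median distance from WT was 1.92 on replicate 1 and 0.66 on replicate 2. Among the 19 lower, 12 had each knockout array at least 1 below the WT mean, with median distances of -1.12 on replicate 1 and -1.24 on replicate 2. The higher set thus rests mainly on replicate 1, and the lower set on both arrays.

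The sets also differed in the genotypes that lack IBM1, whose arrays had no part in choosing them. Of the 19 lower probe sets, both double knockout arrays lay below both IBM1 knockout arrays in 13, where 14.8% of all probe sets do so. In 7 of these the mean was also at least 1 lower, against 0.928% of all. Of the 18 higher probe sets, 5 were above without overlap, against 16.2% of all, and 4 of them by at least 1, against 0.281%. ATPMEPCRB, AT2G43620, 257679_at and 266415_at went the other way, with both double knockout arrays below both IBM1 knockout arrays (-1.84, -2.65, -2.26 and -2.01). AT2G37870 did so too, at -0.48. The mean was higher in the double knockout in 9 of the 18. The median difference of double knockout and IBM1 knockout was -0.85 over the lower set and 0.00 over the higher set. Across all 22746 probe sets the differences of both pairs correlated at 0.0075, as a description over probe sets measured on shared arrays and normalized together.

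**Figure D2:**
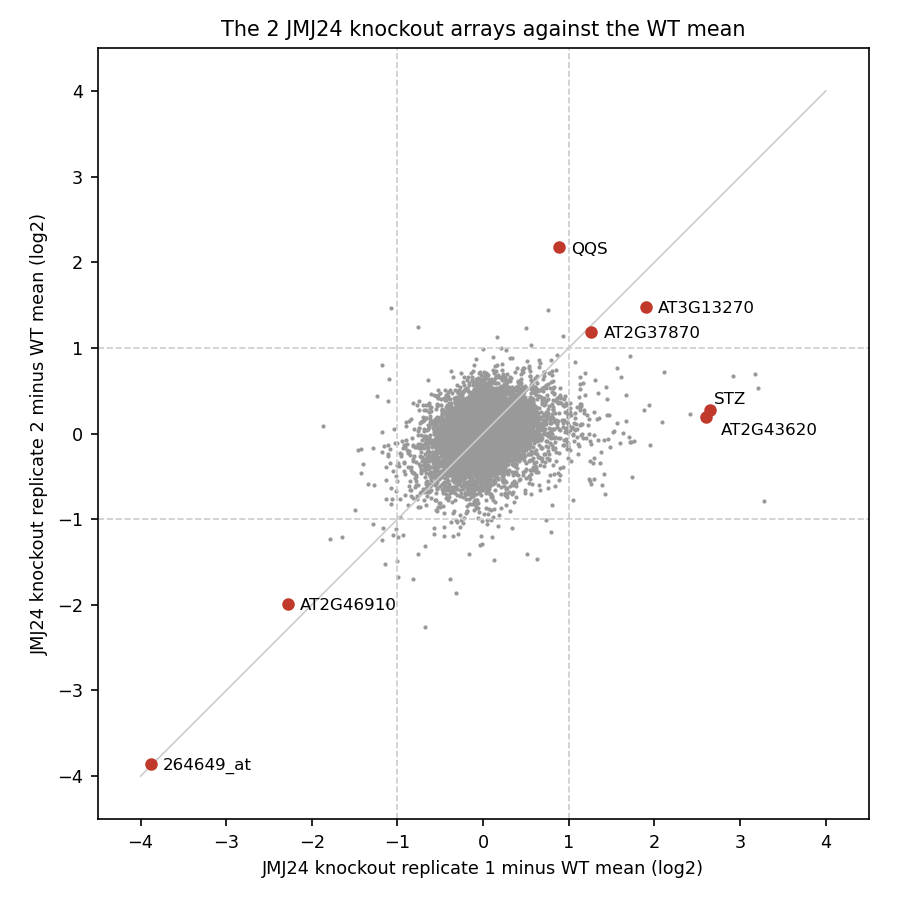
Each point is 1 of 22746 probe sets, placed by its distance from the WT mean on JMJ24 knockout replicate 1 (horizontal axis, log2) and replicate 2 (vertical axis, log2), with dashed lines at 1 and -1 and named genes or probe sets in red. AT2G46910 and 264649_at lie near the diagonal far below 0, AT3G13270 and AT2G37870 lie past 1 on both axes, STZ and AT2G43620 stand out on replicate 1 alone, and QQS stands further from WT on replicate 2.

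Among named genes with lower values and no overlap, several small or poorly described proteins stood beside a few with known roles. AT3G16670, of the pollen Ole e 1 family of secreted proteins, measured 3.75 and 4.18 in the JMJ24 knockout, against 4.77 and 6.01 in WT. The WT arrays of AT3G16670 were themselves more than 1 apart, and the difference of -1.43 did not pass (limma adjusted p = 0.977). In the double knockout it measured 3.76 and 3.89, against 5.20 and 5.08 in the IBM1 knockout. AT4G01390, which encodes a protein with a MATH domain, measured 4.49 and 4.10 in the JMJ24 knockout, against 5.74 and 5.51 in WT, a difference of -1.33. It lay lower in the other pair too, at 4.38 and 4.98 in the double knockout, against 5.42 and 5.70 in the IBM1 knockout. AT4G01390 kept the same side of its comparison genotype on every array of both pairs, with adjusted p of 0.831 for JMJ24 knockout against WT and 0.305 for the other pair.

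AT2G28720 encodes a histone H2B, a core protein of the nucleosome. It measured 5.93 and 6.19 in the JMJ24 knockout, against 6.98 and 7.04 in WT, a difference of -0.95 (limma adjusted p = 0.342). In plants lacking IBM1 the gap was not there: the double knockout measured 6.47 and 6.34, against 6.30 and 6.46 in the IBM1 knockout. AT3G24100 measured 4.96 and 5.18 in the JMJ24 knockout, against 6.31 and 6.16 in WT, with a difference of -1.17 (limma adjusted p = 0.342). Its distance in the other pair was -0.42. AT4G16146 measured 4.18 and 3.31 in the JMJ24 knockout, against 5.79 and 4.82 in WT, so both genotypes held arrays nearly 1 apart. Of the 10 named genes with the largest lower differences and a mean of at least 5 in the higher genotype, the remaining 4 were AT4G40045, AT1G24575, AT2G02400 and AT1G23140, which differed by -1.08 to -0.84 with adjusted p from 0.686 to 1.

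Dimmer probe sets among the 19 lower showed the same arrangement. AT3G60180, a nucleoside monophosphate kinase gene, measured 3.54 and 2.67 in the JMJ24 knockout, against 4.04 and 4.69 in WT. AT4G04750, of the sugar transporter family, measured 3.80 and 3.31 in the JMJ24 knockout, against 4.91 and 4.70 in WT. AT5G27410, of the class IV aminotransferases, measured 2.72 and 3.31 in the JMJ24 knockout, against a WT mean of 4.21 ± 0.0108 (SD, n = 2 arrays). In plants lacking IBM1 the first and second of these also lay lower in the double knockout, by -1.74 and -0.85, and AT5G27410 did not, at 0.24. The probe set 257175_s_at, which names several genes, measured 2.99 and 2.78 in the JMJ24 knockout, against 3.85 and 4.13 in WT. Its difference of -1.10 was not called (limma adjusted p = 0.342), while double knockout minus IBM1 knockout was, at -1.40 (adjusted p = 0.0377), a call that was lost when any 1 array was left out (adjusted p from 0.0765 to 0.203) and with quantile normalization (0.0627). With 2.71 and 2.62 in the double knockout, against 4.02 and 4.11 in the IBM1 knockout, its arrays were arranged alike in both pairs.

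The genes with higher values and no overlap included QQS, a gene found only in Arabidopsis thaliana that affects leaf starch and whose expression varies with DNA methylation of nearby repeats. QQS measured 4.78 and 6.07 in the JMJ24 knockout, against 3.85 and 3.94 in WT, a difference of 1.53 (SE 0.51, limma adjusted p = 1). The knockout arrays were 1.29 apart, with replicate 2 the higher. The double knockout, at 5.70 and 4.99, overlapped with the IBM1 knockout, at 4.78 and 5.54. AT2G37870, of the lipid transfer protein family, had the closest pair of knockout arrays in the higher set, at 5.82 and 5.74, against 4.38 and 4.73 in WT. The difference of 1.22 had an adjusted p of 0.342 in the limma fit. With IBM1 missing AT2G37870 measured 5.24 and 5.47 in the double knockout, against 5.79 and 5.86 in the IBM1 knockout, so the double knockout was there the lower of the pair.

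Several of the other higher genes were carried by replicate 1. The 3 largest mean differences belonged to unnamed probe sets of this kind, the first being 250476_at, with 6.70 and 4.21 in the JMJ24 knockout, against 3.64 and 3.39 in WT. ATPMEPCRB, a pectin methylesterase of the cell wall, measured 6.21 and 4.02 in the JMJ24 knockout, against 3.69 and 3.90 in WT. AT5G35735, of the auxin-responsive DOMON domain family, measured 6.12 and 4.53 in the JMJ24 knockout, against 4.39 and 3.98 in WT. In both, replicate 2 stood barely above the WT arrays. LCR69, a plant defensin also called PDF2.2, measured 9.53 and 8.98 in the JMJ24 knockout, against 8.58 and 8.22 in WT, a difference of 0.86. SAG29, the sugar exporter SWEET15, measured 5.22 and 5.42 in the JMJ24 knockout, against 4.37 and 4.75 in WT. AT2G41190, an amino acid transporter gene, measured 5.81 and 5.24 in the JMJ24 knockout, against 4.67 and 4.63 in WT. Of these 5 genes SAG29 was the one with closer knockout than WT arrays. Left of the 10 named genes with the largest higher differences and a mean of at least 5 were AT2G30930, AT4G23680 and scpl35. The last is a serine carboxypeptidase gene. These 3 genes differed by 0.72 to 0.99, and none of them passed (limma adjusted p from 0.994 to 1).

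**Figure D3:**
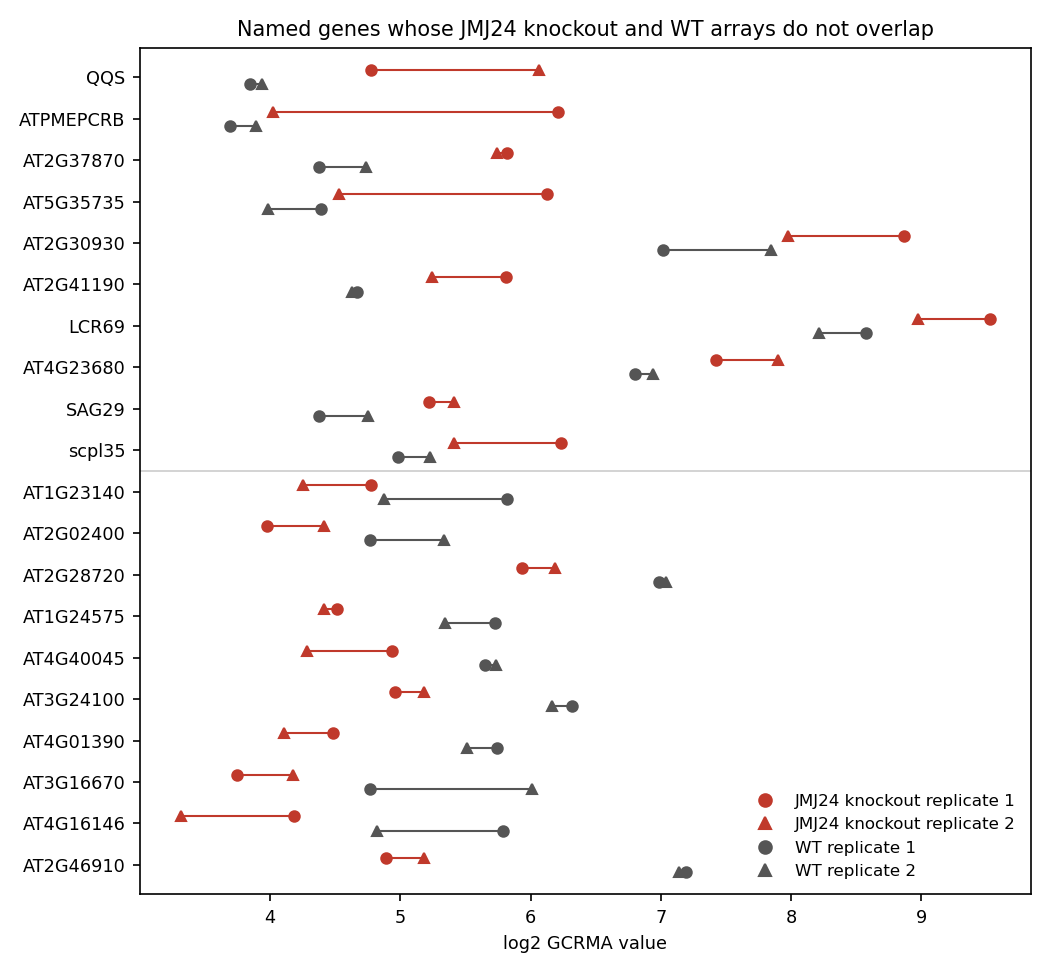
Log2 values (horizontal axis) of the 10 named genes with the largest higher and the 10 with the largest lower differences among those whose arrays do not overlap and whose higher mean is at least 5, with the JMJ24 knockout in red above WT in grey, circles for replicate 1 and triangles for replicate 2. In the upper block long red lines such as ATPMEPCRB and AT5G35735 show knockout arrays far apart, while in the lower block AT2G46910, AT2G28720 and AT3G24100 have short lines and wide gaps to WT.

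Ranking by p rather than by size brought forward genes with small but even differences. AT3G53980, of the lipid transfer protein superfamily like AT2G37870, measured 7.65 and 7.72 in the JMJ24 knockout, against 7.11 and 7.07 in WT. Its difference of 0.59 (SE 0.05) did not pass (limma adjusted p = 0.296). In plants lacking IBM1 its sign was the other one, with 7.35 and 7.32 in the double knockout, against 7.70 and 7.61 in the IBM1 knockout. AT1G52100, a jacalin-type lectin, measured 4.64 and 4.70 in the JMJ24 knockout, against 3.67 and 3.88 in WT. It also stood higher in the double knockout, at 4.62 and 4.68, against 4.13 and 4.27 in the IBM1 knockout, and passed in neither pair (adjusted p = 0.342 and 0.191). AT1G52100 and AT3G13270 were the genes of the 5 lowest p on the higher side that stood higher in both pairs.

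On the lower side UBC18, a ubiquitin-conjugating enzyme, measured 6.10 and 6.02 in the JMJ24 knockout, against 6.73 and 6.78 in WT. The difference of -0.70 (limma adjusted p = 0.342) was accompanied by -0.31 in the other pair. AT4G11970, which encodes a protein of the YTH family of readers of methylated RNA, measured 2.66 and 2.63 in the JMJ24 knockout, against 3.09 on both WT arrays. It showed no such gap with IBM1 missing, at 2.68 and 2.77 in the double knockout, against 2.67 and 2.62 in the IBM1 knockout. AT5G55380, a wax synthase-like gene, was near background in the JMJ24 knockout, at 2.25 and 2.28, against 2.88 and 3.02 in WT, so it stood lower by at least 0.44 (bound of -0.44, limma adjusted p = 0.324).

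The JMJ24 knockout arrays also differed from each other. Replicate 1 stood at least 1 above the WT mean at 108 probe sets (0.475%), replicate 2 at 10 (0.044%), and both at 2 (0.00879%). On the lower side the counts were 48 (0.211%) for replicate 1, 49 (0.215%) for replicate 2 and 12 (0.0528%) for both. The excess of higher probe sets was therefore a feature of 1 array. Replicate 1 exceeded replicate 2 by at least 1 at 151 probe sets (0.664%), and replicate 2 exceeded replicate 1 at 29 (0.127%). For the WT arrays the same counts were 71 (0.312%) and 59 (0.259%). Over all probe sets the replicates were about as close in both genotypes, with a median absolute difference of 0.0813 in the JMJ24 knockout and 0.0785 in WT.

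Probe sets chosen on 1 knockout and 1 WT array had smaller median differences on the other arrays. Choosing by size makes such shrinkage likely beforehand, so no conclusion about the genotypes was drawn from it. The share that kept its sign on the other arrays ran from 31.25% to 77.5% over the choices. The 151 that stood at least 1 higher on JMJ24 knockout replicate 1 than on WT replicate 1 had a median difference of 1.21 there and of 0.05 between the replicates 2. The 46 chosen as higher on JMJ24 knockout replicate 2 against WT replicate 1 had 1.16 where chosen and -0.06 on the other arrays. On the lower side the median on the other arrays varied with the choice. The 40 that stood at least 1 lower on JMJ24 knockout replicate 2 than on WT replicate 2 had a median of -1.20 there and -0.33 between the replicates 1. The 16 chosen as higher on those same arrays had a median of 1.42 there and -0.64 between the replicates 1. With this choice both sets thus lay lower on the other arrays. Across the 4 choices the median on the other arrays ran from -0.64 to 0.05 on the higher side. On the lower side it ran from -0.33 to 0.08.

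At the probe sets higher on replicate 1, the axis on which the knockout arrays differ was shared with the genotypes lacking IBM1. The 151 probe sets higher on replicate 1, of which 72 name 1 gene, had medians relative to the WT mean of 0.98 on JMJ24 knockout replicate 1 and -0.32 on replicate 2. On the double knockout arrays, not used to choose them, the medians were 0.00 on replicate 1 and 0.90 on replicate 2, and replicate 2 was the higher in 130 of the 151, where it is in 34.3% of all probe sets. On the IBM1 knockout arrays they were 0.79 and 0.47. The IBM1 knockout mean was above the WT mean in 132 of the 151, against 42.3% of all probe sets, and at least 1 above in 55, against 1.36%. So 1 array of the JMJ24 knockout and 1 of the double knockout, with different replicate numbers, stood high together at these probe sets. The difference of replicate 1 and replicate 2 of the JMJ24 knockout correlated at 0.372 with the difference of IBM1 knockout and WT, and at 0.0367 with the difference between the WT replicates, over 22746 probe sets of arrays normalized together.

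STZ, a zinc finger repressor also called ZAT10 that responds to salt, cold and wounding, had the largest split among named genes whose WT arrays lay within 0.5 of each other. It measured 5.73 and 3.33 in the JMJ24 knockout, against 3.01 and 3.25 in WT. Double knockout replicate 2 was high as well, at 5.54, with replicate 1 at 3.82, and the IBM1 knockout measured 4.60 and 3.52. AT2G43620, of the chitinase family, measured 5.52 and 3.14 in the JMJ24 knockout, against 2.68 and 3.06 in WT. WRKY53, a transcription factor of leaf senescence and defence, measured 4.23 and 2.64 in the JMJ24 knockout, against 2.74 and 2.97 in WT. In STZ, AT2G43620 and WRKY53 alike replicate 2 of the knockout lay close to WT, and the adjusted p of each mean difference was 1.

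For some genes replicate 2 instead lay under WT. AT3G44970, of the cytochrome P450 family, measured 6.04 and 3.95 in the JMJ24 knockout, against 5.41 and 5.42 in WT. AT2G37130, a class III peroxidase, measured 4.72 and 2.74 in the JMJ24 knockout, against 3.14 and 3.53 in WT. AT5G52750, of the heavy metal-associated domain family, measured 4.73 and 2.61 in the JMJ24 knockout, against 3.42 and 3.20 in WT. These 3 genes had knockout arrays on opposite sides of both WT arrays. AT1G62290, an aspartyl protease, and AT1G19380 were laid out in the same way, with 6.22 and 4.32 in the JMJ24 knockout, against 4.64 and 4.96 in WT, for AT1G62290.

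The reverse split was smaller. At the 29 probe sets higher on replicate 2, the double knockout medians relative to the WT mean were 0.18 and -0.17. Double knockout replicate 2 was above replicate 1 in 11 of the 29, where it is in 34.3% of all probe sets. The IBM1 knockout medians were -0.43 and -0.76, and its mean was above the WT mean in 5 of the 29, against 42.3% of all. AT2G47880, a glutaredoxin of the plant-specific class, measured 3.78 and 5.51 in the JMJ24 knockout, against 4.92 and 4.83 in WT. It ran the opposite way in the double knockout, at 5.41 and 3.87, and was low in the IBM1 knockout, at 3.36 and 2.58. HTR12, the centromeric histone H3, measured 2.50 and 3.49 in the JMJ24 knockout, against 2.44 and 2.56 in WT. HTB2, a histone H2B, measured 6.25 and 7.28 in the JMJ24 knockout, against 7.13 and 6.77 in WT. AT1G13030, which encodes coilin of the Cajal bodies, measured 2.66 and 3.70 in the JMJ24 knockout, against 3.32 and 3.05 in WT. HTR12 stood higher on 1 array alone, whereas HTB2 and AT1G13030 had knockout arrays on both sides of WT. The other members were QQS, described above, AT5G55040, AT1G09910 and AT3G05600, at -1.29, -1.10, -1.01 and -1.01 for replicate 1 minus replicate 2.

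**Figure D4:**
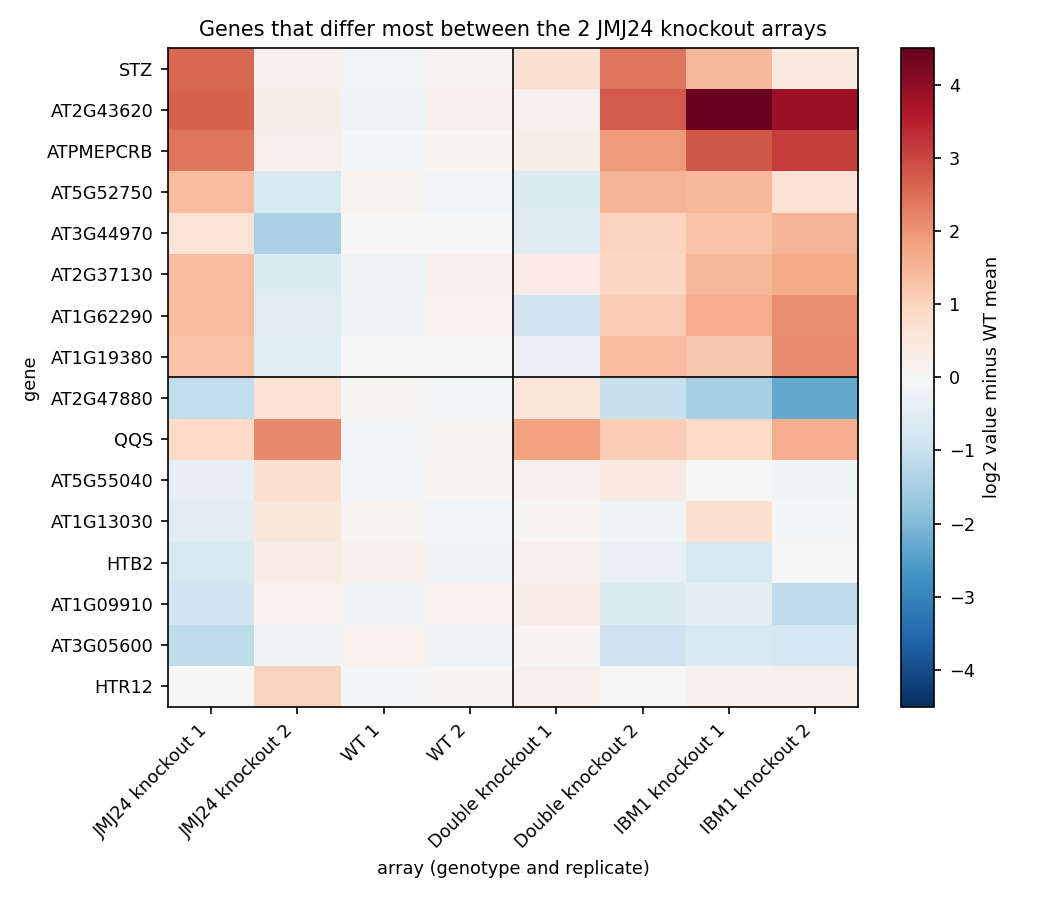
Colour gives the log2 distance from the WT mean for the genes that differ most between the JMJ24 knockout arrays (rows) on each of the 8 arrays (columns), red for higher and blue for lower. In the upper block JMJ24 knockout 1 and double knockout 2 are red together with the IBM1 knockout arrays, while JMJ24 knockout 2 and double knockout 1 are pale or blue; AT2G47880 in the lower block shows the opposite colours on the same arrays.

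Chromatin and silencing genes were read as lists chosen with earlier results of these data known, without a test of the list. Of 25 histone demethylase genes 12 were measured, none was called, 1 had both knockout arrays above WT and 4 had both below, beside 12.2% and 11.0% over all genes. PKDM7D, a jumonji demethylase acting on H3 lysine 4, measured 4.38 and 4.47 in the JMJ24 knockout, against 4.80 and 4.67 in WT. AT2G38950, another jumonji gene, measured 5.72 and 5.27 in the JMJ24 knockout, against 5.15 and 5.12 in WT. Both had an adjusted p of 1. A further 3, LDL2, AT3G45880 and AT5G19840, were near background in both genotypes. LDL2 is 1 of the 4 counted below WT, with a difference of -0.01. Of 28 genes of DNA methylation and RNA-directed silencing only DME, a DNA demethylase, was measured under a name, at 4.46 and 4.37 in the JMJ24 knockout, against 4.32 and 4.29 in WT. The pseudogene AT2G04460, known from earlier results for its level in the IBM1 knockout, measured 3.98 and 2.84 in the JMJ24 knockout, against 2.89 and 2.87 in WT.

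The annotated pseudogenes, many of them remnants of transposons, numbered 989 measured members, of which 460 were near background in both genotypes. Both knockout arrays lay above both WT arrays in 55 and below in 12, under the 12.2% and 11.0% of all genes, and none was called. Replicate 1 lay below both WT arrays in 501 of the 989, and replicate 2 above both in 708, beside 43.7% and 46.3% of all genes. A member with knockout arrays on opposite sides of WT counts in neither the 55 nor the 12. The median difference was 0.01, with -0.01 on replicate 1 and 0.02 on replicate 2. After AT3G13270 the lowest adjusted p was 0.894, for AT4G21420, at 2.70 on both knockout arrays, against 2.55 and 2.53 in WT. AT1G35612, with values further from background, measured 6.63 and 6.71 in the JMJ24 knockout, against 6.15 and 6.38 in WT (limma adjusted p = 0.947).

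Genes of the chloroplast genome stood lower on replicate 1 of the knockout than on its replicate 2. Of 129 such genes 69 were measured; both knockout arrays lay below both WT arrays in 14 and above in 1, beside 11.0% and 12.2% of all genes, and none was called. The median distance from WT was -0.23 on replicate 1 and 0.03 on replicate 2. Replicate 1 lay below both WT arrays in 51 of the 69, against 43.7% of all genes, whereas replicate 2 lay below in 14, against 19.9%, and above in 30, against 46.3%. The ribosomal protein gene rps15 measured 5.40 and 5.68 in the JMJ24 knockout, against 5.95 and 6.03 in WT. For rps19 the values were 10.86 and 11.21 in the JMJ24 knockout, against 11.42 and 11.41 in WT. The part of RNA quality or of the labelling in this shift was not tested. Nuclear photosynthesis genes, of which 6 of 32 were measured, differed by -0.09 to 0.02.

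Defence and stress genes were read in the same way. Of 27 salicylic acid defence genes 4 were measured, with a median distance from WT of 0.73 on replicate 1 and -0.14 on replicate 2. CHI, a chitinase, measured 3.95 and 2.61 in the JMJ24 knockout, against 2.86 and 2.84 in WT. The list's median rests on CHI and SAG101 on replicate 1, and on CHI and AT2G43590 on replicate 2. AT2G43620, described above, had the highest distance from WT of the list on both arrays. SAG101 measured 3.74 and 3.07 in the JMJ24 knockout, against 3.59 and 3.17 in WT. Like CHI, it had replicate 1 above and replicate 2 below both WT arrays. AT2G43590 measured 3.99 and 4.19 in the JMJ24 knockout, between the WT arrays at 3.90 and 4.56. Of 67 WRKY factors 6 were measured, with medians of 0.15 and 0.03. In the jasmonate list the defensin gene PDF1.2 measured 3.01 and 2.80 in the JMJ24 knockout, against 3.04 and 3.18 in WT, and the 4 measured members differed by -0.21 to 0.14. The jasmonate list showed no such split, with medians of -0.01 and 0.04 on the knockout arrays. Cold and abscisic acid genes, 4 of 22, had a median difference of 0.09. COR47, a dehydrin, measured 8.33 and 8.20 in the JMJ24 knockout, against 7.90 and 8.10 in WT. No member of these lists was called.

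Pigment and flowering genes followed. All 5 measured members of 18 anthocyanin and flavonol genes had a lower mean in the knockout, from -0.33 to -0.17, with 2 of the 5 below WT on both arrays, beside 11.0% of all genes. DFR, an enzyme of anthocyanin synthesis, measured 6.18 and 5.87 in the JMJ24 knockout, against 6.40 and 6.23 in WT. Of 20 flowering genes 4 were measured, 1 above and 2 below WT on both arrays, beside 12.2% and 11.0%. The 1 above was ATC, a relative of the floral repressor TFL1, at 2.55 and 2.49 in the JMJ24 knockout, against 2.48 and 2.46 in WT. ATC was near background in WT. SMZ, a repressor of flowering of the AP2 class, measured 2.82 and 2.64 in the JMJ24 knockout, against 3.29 and 3.25 in WT, with an adjusted p of 0.831. Its relative SNZ measured 3.13 and 3.06 in the JMJ24 knockout, against 3.85 and 3.14 in WT, where 1 WT array set the gap. The limma adjusted p of SNZ and of each anthocyanin gene was 1.

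The glycosyltransferase, cytochrome P450, expansin and defensin lists had medians between -0.02 and 0.02 on each knockout array, and over all genes 12.2% lay above and 11.0% below WT without overlap. Of the 43 UDP-glycosyltransferases measured, 6 had knockout arrays above and 5 below WT without overlap. UGT71C4 measured 7.06 and 7.18 in the JMJ24 knockout, against 6.69 and 6.32 in WT, while UGT78D1, which adds rhamnose to flavonols, measured 6.04 and 6.41 in the JMJ24 knockout, against 6.90 and 6.57 in WT. These shares of the glycosyltransferases are near those of all genes. Among 26 cytochromes P450, 1 lay above and 6 below, and CYP71B24 had the lowest difference, -0.73, with knockout arrays at 3.45 and 2.57, against 3.85 and 3.63 in WT. Of 26 expansins and xyloglucan endotransglucosylases 4 lay above and 1 below; EXPA9, a wall-loosening expansin, measured 3.45 and 3.69 in the JMJ24 knockout, against 3.22 and 3.08 in WT. The defensin list had 4 of 17 above and 2 below, and 1 of those below, PDF1A, was matched by its symbol and encodes a peptide deformylase, not a defensin. None of the members of these 4 lists was called.

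**Figure D5:**
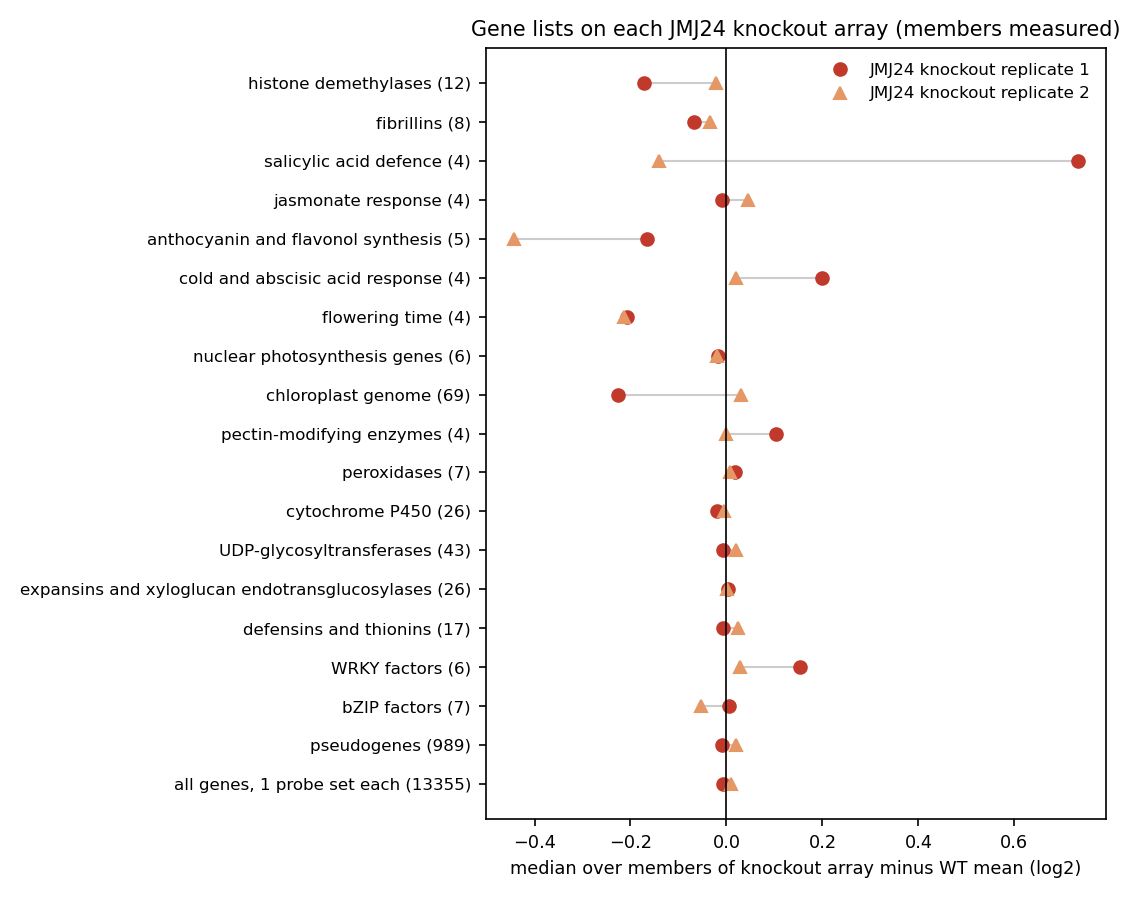
For each gene list (rows, number measured in brackets) the median distance of its members from the WT mean (horizontal axis, log2) is shown for JMJ24 knockout replicate 1 (circle) and replicate 2 (triangle). The salicylic acid defence list lies at 0.73 on replicate 1 and -0.14 on replicate 2 and the chloroplast genome at -0.23 and 0.03, while all genes lie at -0.01 and 0.01.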

How the data were processed

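RNA from 8 samples was hybridised to ATH1 arrays. The authors deposited 1 log2 value per probe set and array. Per the submitters' processing notes they used GCRMA, which corrects background by probe sequence, normalizes across arrays and summarises probes; its version was not stated. Of 22810 probe sets, 64 controls were left out. Names are those of a platform annotation, brought up to date with a TAIR10.1 gene table, in which 13436 matched; that table served only for names, pseudogene status and neighbours. Lists by name pattern read symbols and synonyms.

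With limma 3.58.1 (R 4.3.3), 1 mean for each genotype was estimated from the 8 arrays together (4 residual and 1.2 prior degrees of freedom), and p-values were adjusted by Benjamini-Hochberg over 22746 probe sets. All adjusted p are from this fit. The fit was tested on simulated arrays with independent errors of the fit's own spread. Those lack the axis shared between genotypes and replicates of unknown origin, so the simulation does not bear on either. A genotype was near background where both arrays lay at or below their lower quartile (2.49 to 2.53), and bounds use that quartile. The number of arrays limits the precision.

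The members, lists and rules were chosen with earlier results of these data known. Named were all calls, the 10 largest differences each way without overlap and with a mean of at least 5, the 5 lowest p each way, the 8 largest splits between the knockout arrays each way where WT arrays lay within 0.5, up to 4 genes a list by p, the neighbours of called genes, and AT2G46910, AT4G38020, AT3G13270, QQS and AT2G04460. Probe sets without overlap and past 1 were added after their values were seen. The locus pattern for the mitochondrial genome matched no gene of the table, and patterns for plastid lipid-associated, lipid transfer, dirigent, NBS-LRR, ribosomal, F-box and heat shock proteins by name, MYB factors and transposable elements matched no measured gene; such genes can be measured under other names. Of the other lists, those of heat shock, clock, pentatricopeptide repeat, NAC, bZIP, peroxidase, pectin-modifying and chitinase genes, with 1 to 7 members measured, had 0 calls.

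As alternatives, dim probe sets were left out, arrays were quantile normalized again or centred, limma-trend was used, only the JMJ24 knockout and WT arrays were fitted, a replicate block was added, size thresholds were varied, and each array was left out. Replicate differences correlated at 0.037 between the JMJ24 knockout and WT and from -0.31 to 0.208 over all pairs of genotypes, so same-numbered arrays were not taken as pairs.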

Additional observations from a re-analysis of the deposited data

Results flagged for a closer look

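ATC was the 1 gene among the 156 named probe sets whose change on loss of JMJ24 differed, by limma's interaction term, with and without IBM1. It measured 2.60 and 2.54 in the double knockout, against 4.18 and 4.28 in the IBM1 knockout, while the JMJ24 knockout and WT stood at 2.52 and 2.47 on average, 0.05 apart (adjusted p = 1). WT was near background for ATC, where a further fall on loss of JMJ24 could not be seen. The change in plants lacking IBM1 minus the change in plants with IBM1 was -1.71 (limma adjusted p = 0.0274). The call was lost without any 1 array of the JMJ24 knockout, WT or the double knockout (adjusted p from 0.133 to 0.365), with quantile normalization on top (0.0681) and with the replicate block (0.233).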

How the results depend on the processing

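With 2 arrays per genotype, the limits are few degrees of freedom, an unknown origin of the replicates and 8730 unnamed probe sets; small changes would not be seen. The 2 calls for JMJ24 knockout against WT became 1 with quantile normalization on top, 0 with only the JMJ24 knockout and WT arrays in the fit, 0 with the replicate block, and 0 to 1 when any array was left out, all by limma. An unadjusted p under 0.05 was reached there by 1189 of 22746 probe sets with only those arrays and by 1110 with the block, both near a share of 0.05. The filter on dim probe sets, centring and limma-trend gave 2, 2 and 3. AT2G46910 kept its direction under every one of these, from -2.28 to -1.99, and 264649_at from -3.90 to -3.83. With the replicate block their adjusted p were 0.169 and 0.145, and 0.0665 and 0.0597 in double against IBM1 knockout. The cause of the lost calls was not tested.

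The 37 probe sets without overlap and past 1 became 373 with a threshold of 0.5 and 9 with 1.5, and 56 to 154 without 1 of the 4 arrays: 56 (7 higher, 49 lower) without JMJ24 knockout replicate 1, 154 (108 higher, 46 lower) without replicate 2, 58 without WT replicate 1 and 124 without WT replicate 2. Dim probe sets left out, JMJ24 knockout replicate 1 had 59 probe sets at least 1 higher than the WT mean in place of 108 and 30 lower in place of 48, and replicate 2 had 5 higher in place of 10 and 32 lower in place of 49. Without 1 WT array those counts ran from 151 to 153 and from 52 to 95 for replicate 1, and from 16 to 46 and from 40 to 108 for replicate 2. The 55 calls of double against IBM1 knockout became 6 with the filter on dim probe sets, 25 with quantile normalization, 0 with the replicate block and 0 to 161 with 1 array left out. There AT3G13270 was called with centring and with limma-trend, at 1.82 and 1.80, and AT4G38020 was not called with limma-trend. Arrays of the same number in the JMJ24 and double knockouts deviated in opposite ways, at -0.31.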
